A study of Mus musculus with 41 samples.

Results

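Heat shock proteins, their DnaJ partners and the chaperonins were followed in sorted stroma of the mouse thymus. The genes were chosen by symbol: Hspa, Hspb, Hspd, Hspe or Hsp90 with a suffix, Hsph1, Dnaja, Dnajb or Dnajc with a number, Cct with a number, and Tcp1. This gave 65 genes of 13283 with a probe naming a single gene. Of these, 60 had a value in thymic epithelial cells (TEC), 62 in the other stroma (nonTEC) and 57 in both. Each gene was read from its probe of highest mean, on Illumina arrays whose deposited values are log2 intensities.

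The samples came from male C57Bl/6 mice that were young (5 to 6 weeks) or middle-aged (9 to 12 months). Some middle-aged mice were castrated or sham-castrated and taken at day 4, 7 or 20 after surgery, day 20 for TEC only. TEC were sorted as CD45-EpCAM+ cells and nonTEC as CD45-EpCAM- cells, so CD45, a leukocyte surface protein, was to be absent from both. There were 24 TEC arrays in 8 groups and 17 nonTEC arrays in 6 groups, with 3 arrays a group and 2 for sham-castrated nonTEC at day 7. Nothing in the labels ties an array to its own animal. A p-value here therefore covers only the spread between arrays, which may be technical, and the number of arrays limits the precision.

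Chaperones hold or refold unfolded proteins. HSP70 proteins (Hspa genes) bind short exposed stretches and use ATP to release them, DnaJ proteins deliver clients and start the ATP cycle, and HSP110 proteins (Hsph1, Hspa4l) exchange the nucleotide. HSP90 proteins finish the folding of kinases and steroid receptors, small heat shock proteins (Hspb genes) keep unfolded clients soluble without ATP, and chaperonins enclose a client in a barrel: HSP60 and HSP10 (Hspd1, Hspe1) in mitochondria, the CCT ring (Tcp1 and the Cct genes) in the cytosol. Many of these genes are induced by heat shock factors within minutes to hours of warming, dissociation or other stress, whereas others serve constant folding in the endoplasmic reticulum or in mitochondria.

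The sorted fractions differed in the markers of their gates, with transcripts of other cells in both. Krt8, an epithelial keratin, lay at 12.73 to 13.65 on the TEC arrays and at 7.02 to 10.74 on the nonTEC arrays. Pdgfra, a fibroblast receptor, lay at 4.78 to 9.11 in TEC and 12.16 to 13.32 in nonTEC. Dcn, a fibroblast proteoglycan, lay at 13.91 to 14.58 in nonTEC but also at 9.91 to 12.88 in TEC. Foxn1, the transcription factor that defines TEC, stayed at 4.43 to 5.86 in TEC, near the lowest values of the table (4.17), and Epcam was not analysed here. Transcripts of T cells were not absent: Cd3e reached 4.80 to 10.64 in TEC and 8.04 to 11.47 in nonTEC. The arrays of a group correlated at 0.972 to 0.99 in nonTEC, but at 0.854 to 0.943 in middle-aged TEC and 0.926 to 0.986 in castrated day 4 TEC. The labels give no scan or extraction batch. In such bulk samples, fewer cells of a type and less RNA per cell cannot be told apart.

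The members passed a filter on dim probes unevenly by family. A gene was tested where at least 1 group averaged above 6.73, the median of all values. In TEC 41 members passed and in nonTEC 45, 18 passed in neither fraction, and those that did not pass were not read further. By family, the genes tested in TEC and nonTEC were 7 and 9 of 12 HSP70 and HSP110 genes, 3 and 3 of 5 small heat shock genes, 2 and 2 of 2 HSP90 genes, 5 and 5 of 9 cytosolic chaperonin genes, 5 and 6 of 9 Dnajb genes, and 15 and 16 of 23 Dnajc genes. Both mitochondrial chaperonin genes were tested in both fractions, as were 2 of 3 Dnaja genes. The genes left out include Hspa4, Dnaja1, Cct2, Cct5 and Cct7. Hsp90ab1, Hspa13 and Hspa14 were not analysed here.

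In the unoperated mice, more of these genes read lower in TEC than in nonTEC than the reverse, as was so over all genes. The fractions were apparently normalized apart, so their levels are set side by side without a test, over 6 arrays each. Of the 46 members in the joint table, 4 lay above every nonTEC array, where 16.6% of all genes did, and 15 lay below, where 28.2% did. These counts hold genes that passed the filter on dim probes through a single fraction (Dnajc12 through TEC, Hspa12b, Hspa5 and Dnajb4 through nonTEC), whose separation is favoured by the filter itself. Dnajc17 (through TEC), Dnajc18 and Dnajc27 (through nonTEC) also passed through a single fraction and overlapped. Of the 39 members that passed in each fraction by itself, 3 lay above and 12 below, where 12.3% and 26.9% of 6810 genes did. Dnajc6, auxilin, the DnaJ protein that helps uncoat clathrin vesicles, read 10.47 to 11.15 in TEC and 7.51 to 8.70 in nonTEC. Hspa12b, a distant HSP70 known from endothelium, read 4.46 to 5.80 in TEC and 8.43 to 9.19 in nonTEC. Hsp90aa1, the inducible cytosolic HSP90, read 4.56 to 8.63 in TEC and 10.51 to 11.68 in nonTEC. Hsph1 read 11.41 to 12.05 in TEC and 12.11 to 13.74 in nonTEC, and Hspa8, the constitutive HSP70, 13.46 to 13.73 and 13.95 to 14.35. The endoplasmic reticulum chaperones Hspa5 (BiP), Hsp90b1 (GRP94), Dnajb9 and Dnajc10 were among the 15, where the separation of Hspa5 is favoured by the filter. Not all members of that compartment were: Dnajc3 overlapped (8.22 to 8.91 in TEC and 8.76 to 9.66 in nonTEC). Dnajb12, of its membrane, lay above (7.08 to 7.69 in TEC and 6.62 to 6.91 in nonTEC). The median difference of the 46 was -0.18, against -0.25 over all genes, which are close.

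Ageing changed these genes in the nonTEC fraction. Between young and middle-aged mice 12 members rose and 4 fell of the 45 tested, 35.6% at an adjusted p under 0.05, where 32.5% of all 7765 genes passed; the share is close to the background and the change is one of named genes. By direction, 16.8% of all genes rose and 15.6% fell. The arrays of both ages did not overlap for 23 members, and for 40.3% of all genes. The median difference of the members was 0.26, against 0.01 over all genes. Differences here and below are log2 values, middle-aged minus young or castrated minus sham, ± SE from limma, with Benjamini-Hochberg adjustment over all genes tested.

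All 3 small heat shock genes tested rose in nonTEC. Hspb8, a small heat shock protein that works with the co-chaperone BAG3 in selective autophagy, read 11.43, 11.53 and 11.14 on the young arrays and 12.52, 12.67 and 12.37 on the middle-aged arrays. The groups lay fully apart, a rise of 1.15 ± 0.15 (2.23-fold, adjusted p = 4.17e-05). Its second probe gave 1.08 (adjusted p = 0.000885). Hspb1, HSP27 in humans, read 12.67, 12.60 and 11.93 in young and 12.99, 12.85 and 13.26 in middle-aged mice, higher by 0.63 ± 0.17 (adjusted p = 0.0104), again without overlap. Without the lowest young array that difference was 0.40 (adjusted p = 0.074). Hspb6, a small heat shock protein of muscle-like cells, rose by 0.60 ± 0.16 (adjusted p = 0.0104), from 9.03, 9.12 and 8.91 to 9.34, 9.56 and 9.94.

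The 9 HSP70 and HSP110 genes tested all read higher in middle-aged nonTEC, and 3 of them passed. Hsph1, the inducible HSP110, read 12.85, 12.44 and 12.11 in young and 13.74, 13.12 and 13.68 in middle-aged mice. All old arrays exceeded all young ones, by 1.05 ± 0.22 (2.07-fold, adjusted p = 0.00169). Hspa1b, an inducible HSP70, had the largest difference, 1.38 ± 0.43 (adjusted p = 0.0217), from 10.34, 12.57 and 11.69 to 13.41, 12.24 and 13.09. Here the groups overlapped, and without the lowest young array the difference was 0.78 (adjusted p = 0.136), and without the highest middle-aged array 1.13 (adjusted p = 0.0987). Hspa2, an HSP70 abundant in testis, rose by 0.59 ± 0.16 (adjusted p = 0.00982), from 9.60, 9.61 and 9.35 to 10.15, 9.97 and 10.21, with an adjusted p of 0.0521 without young array 3. Hspa1a, the near-identical neighbour of Hspa1b, differed by 0.11 and Hspa8 by 0.17, neither of which passed. The Hspa1a probe used read 13.64 to 14.44 over all nonTEC arrays, where the highest value of the table is 14.89. Its other probes varied by 3.02 and 3.28 over those arrays, so the 0.11 holds for the probe used only. Because Hspa1a and Hspa1b share most of their sequence, their probes may each read both transcripts.

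**Figure D1:**
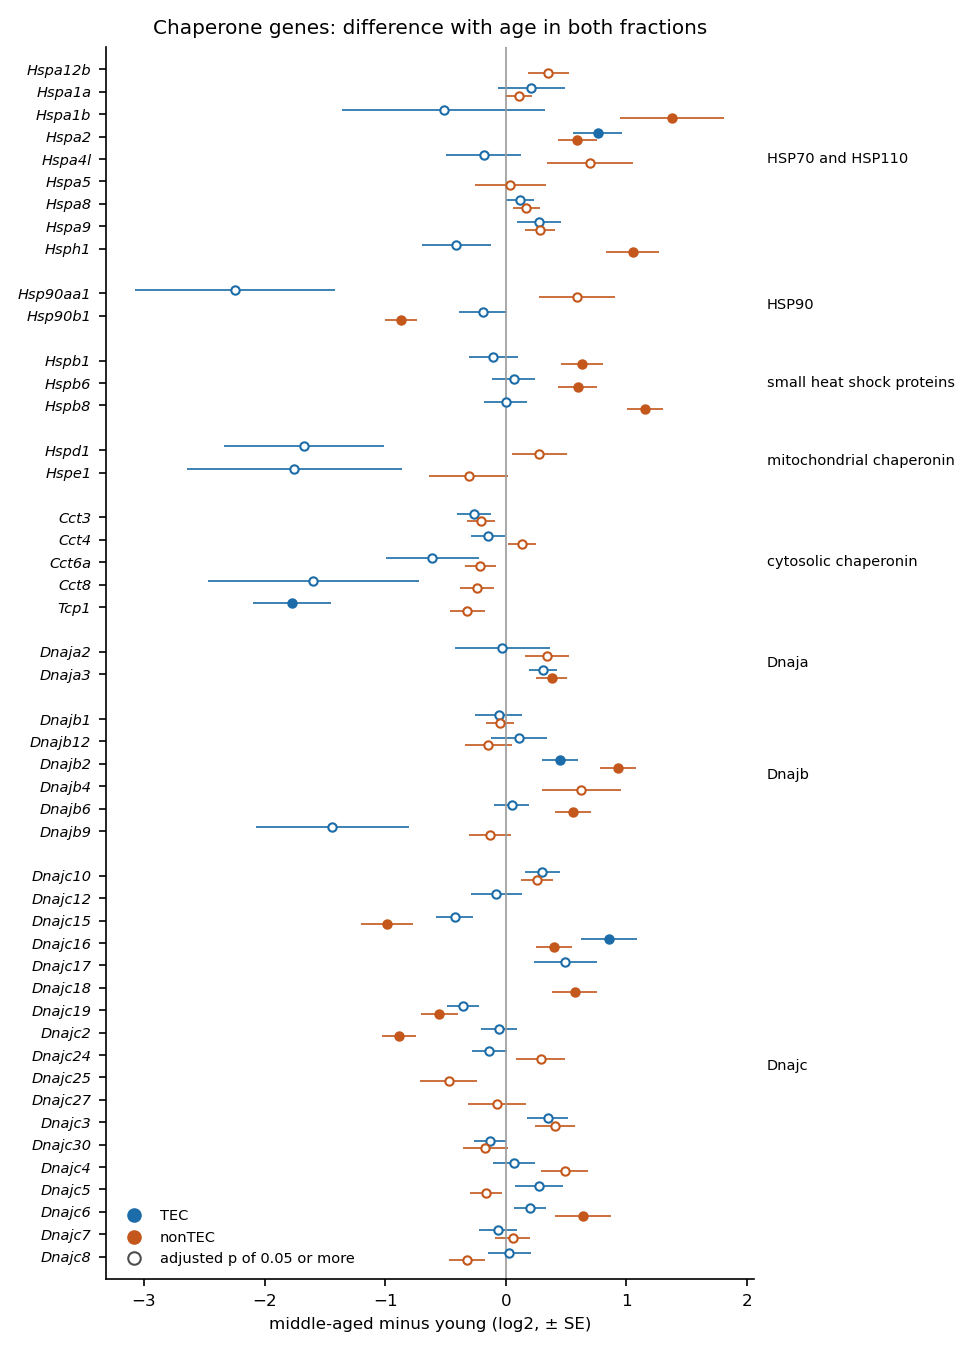
Difference with age (middle-aged minus young, log2 ± SE, horizontal axis) of each tested chaperone gene, by family, in TEC (blue) and nonTEC (orange); filled points passed an adjusted p of 0.05. In nonTEC the small heat shock genes, Hsph1, Hspa1b and Dnajb2 lie to the right and Hsp90b1, Dnajc2 and Dnajc15 to the left. In TEC the wide bars belong to Hspe1, Cct8, Hspa1b, Hsp90aa1, Hspd1 and Dnajb9.

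Among the DnaJ genes, changes ran both ways. Dnajb2, a DnaJ protein with ubiquitin-interacting motifs best known from neurons, read 9.80, 9.64 and 9.19 in young and 10.36, 10.45 and 10.62 in middle-aged nonTEC, a rise of 0.93 ± 0.15 without overlap (adjusted p = 0.000239). Dnajc6 rose by 0.64 ± 0.24 (adjusted p = 0.0443), with overlapping arrays. The rule that named at most 8 rising genes left Dnajc18, Dnajb6, Dnajc16 and Dnaja3, which are given here after their values were seen and rose by 0.57, 0.56, 0.40 and 0.38. Dnajc15, a mitochondrial inner membrane DnaJ protein, fell from 10.06, 9.65 and 10.04 to 8.29, 9.30 and 9.21, by -0.98 ± 0.21 (adjusted p = 0.00239). Dnajc2, the DnaJ protein of the ribosome-associated complex, fell from 8.87, 8.89 and 9.17 to 8.05, 8.17 and 8.05, by -0.89 ± 0.14 (adjusted p = 0.000198). The arrays of both ages lay apart for both genes. Dnajc19, a partner of mitochondrial protein import, differed by -0.55 ± 0.15 (adjusted p = 0.0106) on its brightest probe but by 0.37 and 0.50 on its other probes, the latter with an adjusted p of 0.0331, so the gene has no single direction in these data.

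Hsp90b1, the HSP90 of the endoplasmic reticulum, fell with age in nonTEC from 13.48, 13.52 and 13.34 to 12.85, 12.55 and 12.33. The groups did not overlap and the difference was -0.87 ± 0.13 (1.82-fold, adjusted p = 0.000152). Its partner in that compartment, Hspa5, differed by 0.04, and Dnajb9 did not pass either. Hsp90aa1 differed by 0.59 (adjusted p = 0.159), Hspd1 by 0.28, Hspe1 by -0.31 and Tcp1 by -0.32 (adjusted p = 0.0977). No cytosolic chaperonin gene passed in nonTEC. The second probe of Hspd1 gave 1.48 (adjusted p = 0.0239) and a second probe of Hspa8 gave 1.37 (adjusted p = 0.0051), so for both genes the call depends on the probe.

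Other transcripts moved with age in the same nonTEC arrays. All 4 tested pan-leukocyte genes fell and 4 of 5 thymocyte genes fell, and the mean of the 6 pan-leukocyte genes was 9.05 to 9.35 on the young arrays and 6.94 to 7.76 on the middle-aged arrays. Ptprc, which encodes CD45, stayed at 4.38 to 5.73 over all nonTEC arrays. Of the epithelial markers 4 of 6 fell and 1 rose, of the fibroblast markers 4 of 7 fell, and 16 of 18 cell cycle genes fell. The part of these in the differences of the chaperone genes was not tested. When the 6 unoperated nonTEC arrays were fitted alone, 8 members passed in place of 16, all of them among the 16.

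Promoters were searched because heat shock factors bind blocks of NGAAN in alternating orientation. The members with a match of 3 blocks are shown first, whatever their values, and then the genes of largest rise in nonTEC. Sequences were taken from RefSeq (GRCm38.p6), 250 bases before to 50 after each start. They were found for 53 of the 65 genes, with 71 windows of 32851 in the table. A motif of 3 blocks (GAA, TTC and GAA in this order with any 2 bases between neighbours, or on the other strand TTC, GAA and TTC, overlapping matches counted apart) was in 0.603% of all windows and 0.662% of all genes. It was in 4 of the 53 members (7.55%): Hspd1 and Hspe1, which share a promoter, Dnajb6 and Hsph1. The matches, in capitals, were as follows, each on the gene's own strand, at chr1:55088053-55088082 (plus strand) between Hspd1 and Hspe1, chr5:29735846-29735870 (plus) before Dnajb6 and chr5:149636287-149636306 (minus) just after the starts of Hsph1.
Hspe1: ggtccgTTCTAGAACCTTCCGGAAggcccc
Dnajb6: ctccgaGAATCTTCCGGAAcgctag
Hsph1: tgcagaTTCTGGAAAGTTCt

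The capitals in the Hspe1 stretch are 2 overlapping matches, 89 and 84 bases before its start. The Dnajb6 match lay 46 and 127 bases before its starts, and the Hsph1 match 15 and 36 bases after its starts. Of these genes Hsph1 and Dnajb6 rose with age in nonTEC, and Hspd1 and Hspe1 did not pass. A match is only a run of letters, and no binding was measured.

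A shorter motif of 2 blocks, GAANNTTC or TTCNNGAA, was in 17 of the 53 members (32.1%) and 17% of all genes. Among them were Hspa1b, Hspb1, Hspb6 and Hspb8, which rose with age in nonTEC. Hspa1a, Hspd1, Hspe1, Cct6a, Dnajb4, Dnajc10 and Dnajc27 also held it and did not pass there. Dnajb2, Hspa2, Dnajc6, Dnajc16 and Dnaja3 rose there without a match. The 200 bases before the outermost start are printed for the 3 genes of largest rise in nonTEC, with the 2-block matches in capitals. They lie at chr17:34959239-34959438, chr5:149636337-149636536 and chr5:116422865-116423064, all on the minus strand, and the Hspb8 stretch holds no match, since its match lies after the start.
Hspa1b: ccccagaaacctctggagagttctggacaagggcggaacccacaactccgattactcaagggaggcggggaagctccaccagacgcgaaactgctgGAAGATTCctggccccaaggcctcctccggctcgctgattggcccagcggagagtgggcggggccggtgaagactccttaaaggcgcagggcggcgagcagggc
Hsph1: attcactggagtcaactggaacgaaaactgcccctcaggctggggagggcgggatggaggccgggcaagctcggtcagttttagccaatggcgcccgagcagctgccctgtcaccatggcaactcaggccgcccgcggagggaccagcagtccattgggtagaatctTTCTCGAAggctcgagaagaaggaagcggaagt
Hspb8: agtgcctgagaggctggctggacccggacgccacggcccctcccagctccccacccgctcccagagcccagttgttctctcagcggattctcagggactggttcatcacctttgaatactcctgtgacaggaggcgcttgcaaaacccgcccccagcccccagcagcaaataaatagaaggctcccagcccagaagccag

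In TEC, fewer chaperone genes changed with age. Of 41 tested, 3 rose and 1 fell, 9.76%, where 18.5% of all 8174 genes passed, 11.9% higher and 6.61% lower. The arrays did not overlap for 8 members, and for 26.8% of all genes. The median difference of the members was -0.06, against 0.01 over all genes. Tcp1, the alpha subunit of the CCT ring, read 10.07, 10.36 and 9.68 in young TEC and 9.05, 7.84 and 7.91 in middle-aged TEC. The arrays lay fully apart, by -1.77 ± 0.33 (3.41-fold, adjusted p = 0.00132). With the sham groups, day 20 included, in place of the unoperated middle-aged arrays, the difference of Tcp1 was 0.19. Hspa2 rose by 0.76 ± 0.21 (adjusted p = 0.0153), from 10.09, 9.84 and 10.08 to 10.76, 10.82 and 10.71, without overlap. Dnajb2 rose by 0.45 ± 0.15 (adjusted p = 0.0392), from 10.03, 10.30 and 10.43 to 10.92, 10.63 and 10.55, again without overlap. Dnajc16, a membrane-bound DnaJ protein, rose by 0.85 ± 0.23 (adjusted p = 0.0168), with overlapping arrays, and its second probe showed no difference (0.0045). None of the 4 passed when the unoperated TEC arrays were fitted alone, where 0.106% of all genes did. Without 4 TEC arrays that stood apart, 13 members passed, these 4 genes included, where 36.3% of all genes did. The arrays were sham day 4 array 3, middle-aged array 3 and castrated day 4 arrays 2 and 3, neighbours in the order of the samples. Without young array 2 the count was 1, and without middle-aged array 3 it was 10.

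Some genes with a wide spread in TEC differed by as much as Tcp1 or nearly so and did not pass. Hsp90aa1 read 8.55, 8.63 and 8.02 in young TEC and 7.64, 4.56 and 6.27 in middle-aged TEC, a difference of -2.24 ± 0.83 (adjusted p = 0.063) without overlap. Hspd1 read 11.05, 10.53 and 10.17 in young TEC and 9.83, 6.47 and 10.43 in middle-aged TEC (-1.67 ± 0.66, adjusted p = 0.0835). Hspe1, its partner in the mitochondrial chaperonin, read 9.23, 9.18 and 8.99 and then 7.64, 5.56 and 8.94 (-1.75 ± 0.89, adjusted p = 0.174). In each of these genes the second middle-aged array was lowest. Cct8, another CCT subunit, read 5.22 on that array against 9.46 and 9.78 on the others of its group, and Dnajb9, a DnaJ protein of the endoplasmic reticulum, 4.82 against 8.14 and 8.71. The small heat shock genes that rose in nonTEC differed by -0.10 (Hspb1), 0.07 (Hspb6) and -0.0024 (Hspb8) in TEC.

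Beside these genes in TEC, 3 of 4 pericyte and smooth muscle genes, 3 of 4 pan-leukocyte genes and both erythroid genes fell with age. The mean of 4 pan-leukocyte genes was 11.35 to 11.45 on the young arrays and 10.03 to 10.99 on the middle-aged arrays. None of 8 epithelial markers passed. Their part in the chaperone differences was not tested.

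The ageing difference itself was compared between the fractions in a fit of all 41 arrays. It differed for 4 of 46 members, 8.7%, where 11.2% of all 8487 genes differed (7.78% higher and 3.45% lower as TEC minus nonTEC); 8 differed without middle-aged TEC array 1 and 7 without array 3. Hspb8 differed most surely, by -1.16 ± 0.24 (TEC minus nonTEC, adjusted p = 0.00203): TEC stayed at 11.91, 12.20 and 11.68 in young and 12.13, 11.93 and 11.72 in middle-aged mice. Hsph1 differed by -1.46 ± 0.39 (adjusted p = 0.0133), with 11.91, 12.05 and 11.67 in young TEC and 11.45, 11.41 and 11.54 in middle-aged TEC, opposite in sign to nonTEC. Tcp1 differed by -1.45 ± 0.38 (adjusted p = 0.0127), with nonTEC at 10.70, 11.33 and 10.84 in young and 10.60, 10.71 and 10.59 in middle-aged mice. Dnajc2 differed by 0.83 ± 0.20 (adjusted p = 0.00613), with TEC at 9.69, 9.47 and 9.33 and then 9.46, 9.72 and 9.14. On the second probe of Hspb8 the difference was -0.99 (adjusted p = 0.067), and on that of Tcp1 -0.64 (adjusted p = 0.23).

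**Figure D2:**
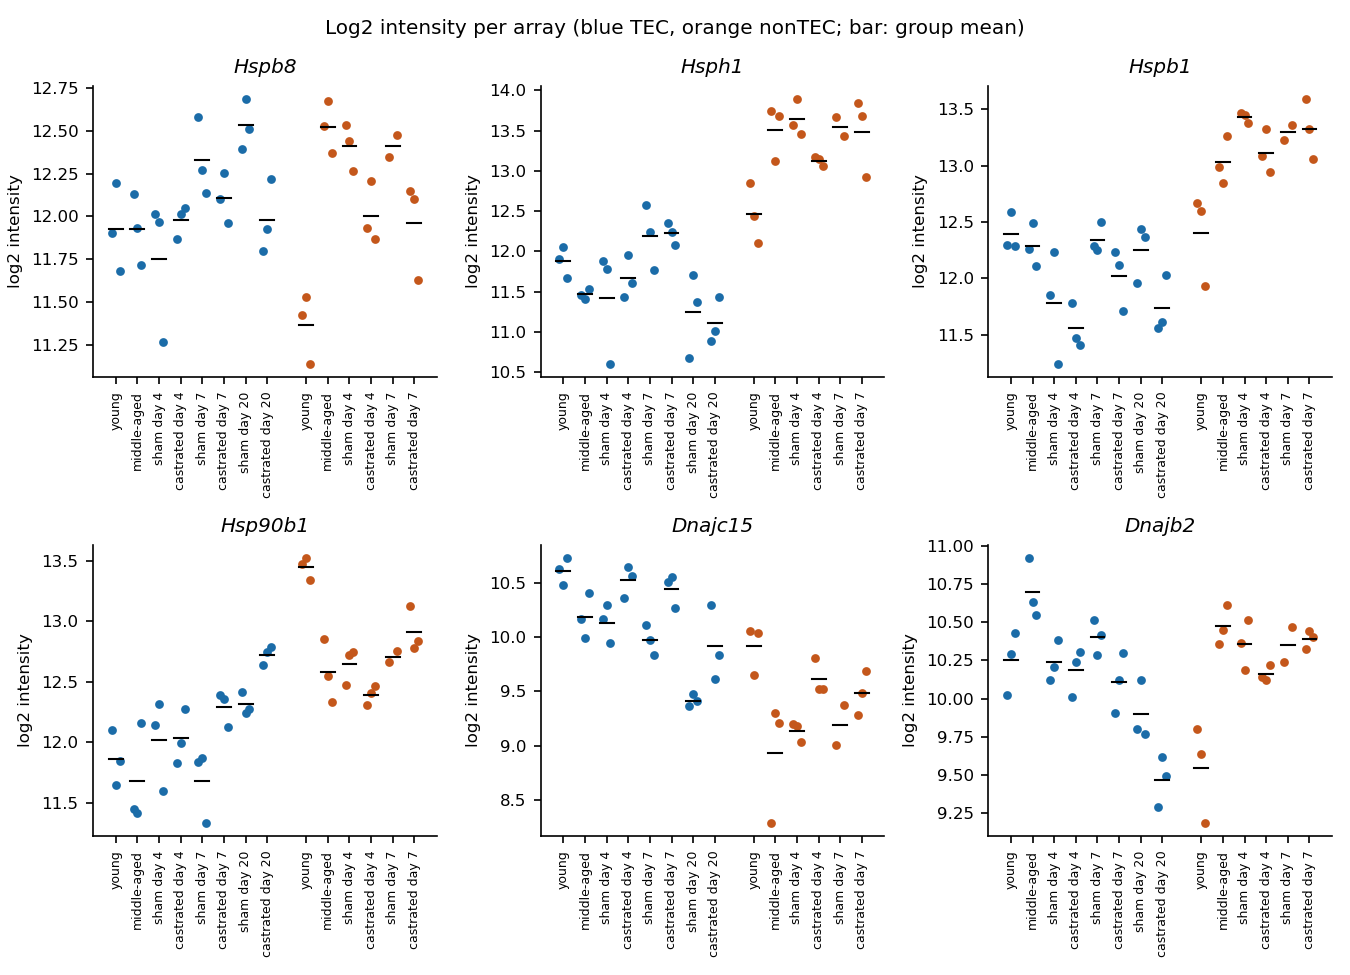
Log2 intensity (vertical axis) of 6 chaperone genes on every array, in the 8 TEC groups (blue) and 6 nonTEC groups (orange); bars are group means and each panel has its own scale. In nonTEC, the young arrays lie apart from the middle-aged arrays in all 6 panels.

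Castration at day 4 and day 7 changed few chaperone genes past the threshold. In TEC, limma called 0 of 41 at day 4 (9 at an unadjusted p under 0.05), where 3.61% of all genes passed (2.32% higher, 1.28% lower), and 0 of 41 at day 7 (4 unadjusted), where 0.196% did (0.0734% higher, 0.122% lower). Without castrated array 1 the count at day 4 was 7, and without sham array 1 it was 2. In nonTEC it called 1 of 45 at day 4, 2.22% against 6.22% of all genes (2.59% higher, 3.63% lower), and 0 of 45 at day 7 (4 unadjusted) against 0.425% (0.0515% higher, 0.373% lower). The gene was Dnajc16, which read 7.89, 7.85 and 8.13 in sham and 7.32, 7.29 and 7.59 in castrated nonTEC at day 4, lower by -0.56 ± 0.15 (adjusted p = 0.0348). The arrays did not overlap, but the call was lost when any array but castrated array 3 was left out, and the second probe of the gene gave -0.03.

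Among the largest castration differences in TEC at day 4, which did not pass, were those of Cct8 and Hspe1. Cct8 read 9.86, 10.01 and 10.16 in castrated TEC and 9.83, 8.03 and 6.68 in sham TEC (1.83 ± 0.88, adjusted p = 0.195). Hspe1 read 9.13, 9.79 and 9.70 against 9.42, 7.35 and 6.43 (1.81 ± 0.89, adjusted p = 0.207). In both genes the sham arrays spread over more than the castrated ones. The smallest adjusted p was that of Dnajc8 (-0.64, adjusted p = 0.0505).

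Hspb8 and Hsph1, which rose with age in nonTEC, read lower there after castration at day 4 without passing. In TEC at that day both read higher (0.23 and 0.25), also without passing. In nonTEC at day 4 the other genes that rose with age went both ways. Hspa1b (0.365), Dnajc18 (0.28), Dnajc6 (0.26) and Hspb6 (0.08) read higher, none passing. Hspb1 (-0.31), Dnaja3 (-0.30), Dnajb2 (-0.20), Dnajb6 (-0.17) and Hspa2 (-0.14) read lower without passing, and Dnajc16 as given above. Hspb8 read 12.53, 12.44 and 12.26 in sham and 11.94, 12.21 and 11.87 in castrated mice, fully apart (-0.41 ± 0.15, adjusted p = 0.112). Its second probe gave -0.72 (adjusted p = 0.0409). At day 7 it read 12.35 and 12.48 in sham and 12.15, 12.10 and 11.63 in castrated mice (-0.45 ± 0.17, adjusted p = 0.308). Hsph1 read 13.57, 13.89 and 13.46 in sham and 13.18, 13.14 and 13.06 in castrated mice at day 4 (-0.51 ± 0.22, adjusted p = 0.167). At day 7 its castrated arrays (13.84, 13.68 and 12.92) spanned the sham arrays (13.67 and 13.43), a difference of -0.07 ± 0.24 (adjusted p = 0.96). Beside these values, 4 of 4 pan-leukocyte genes, 5 of 6 epithelial markers and 13 of 18 cell cycle genes rose in the same arrays; their part was not tested.

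At day 20 castration changed 5 of 41 members in TEC, 3 up and 2 down, 12.2% against 22.2% of all genes (12.8% higher, 9.35% lower). Hspb8 fell from 12.40, 12.68 and 12.51 in sham to 11.80, 11.93 and 12.22 in castrated TEC (-0.55 ± 0.18, adjusted p = 0.0344), and its second probe by -1.02 (adjusted p = 0.00893). Dnajb2 fell from 9.80, 10.12 and 9.77 to 9.29, 9.62 and 9.49 (-0.43 ± 0.15, adjusted p = 0.0384). Neither gene's arrays overlapped. Dnajc6 rose from 11.02, 11.06 and 10.90 to 11.52, 11.70 and 11.52 (0.59 ± 0.13, adjusted p = 0.00284), and Dnajc15 from 9.37, 9.48 and 9.41 to 10.30, 9.61 and 9.84 (0.50 ± 0.16, adjusted p = 0.0253). Dnajc12, a DnaJ protein that works with the aromatic amino acid hydroxylases, rose from 6.39, 6.40 and 6.01 to 6.80, 6.86 and 6.95 (0.61 ± 0.21, adjusted p = 0.0447). Against the unoperated middle-aged arrays in place of sham, castrated TEC read lower in Dnajc12, by -0.77 (adjusted p = 0.00556), and the values of Dnajc15 and Hspb8 also changed sign. Hspb1 and Dnajb1, the main HSP40, each differed by -0.52 and did not pass (adjusted p = 0.078 and 0.0585). Without castrated array 1 or sham array 2, 1 of the 5 calls remained, without sham array 3 there were 2 and without castrated array 2 there were 3.

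The same day 20 TEC arrays differed in other genes. Of 19 immediate early genes, which respond to handling within minutes, 12 fell and 1 rose in castrated TEC, and the mean of the 20 with a value was 10.84 to 10.92 in sham and 9.83 to 10.02 in castrated arrays. All 4 pan-leukocyte genes, both erythroid genes and 5 of 17 cell cycle genes rose. Their part in the 5 chaperone calls was not tested.

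**Figure D3:**
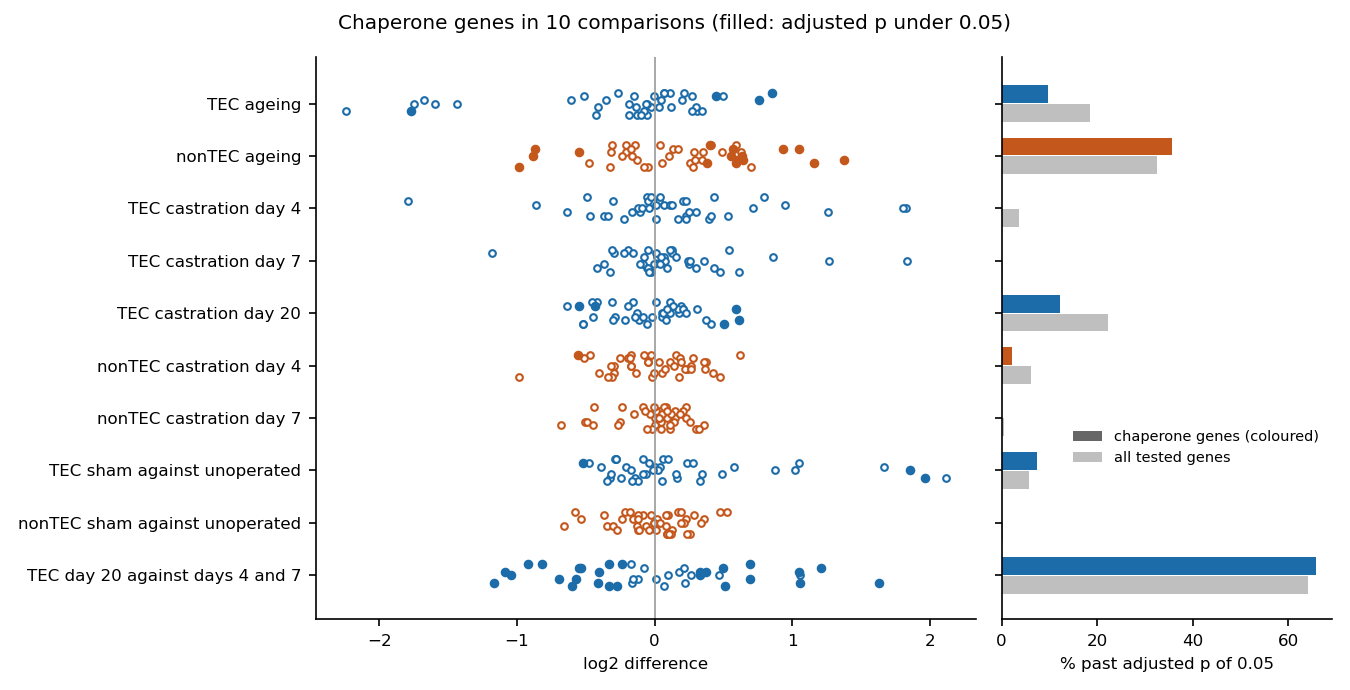
Left, the log2 difference (horizontal axis) of each tested chaperone gene in 10 comparisons (rows), filled where the adjusted p was under 0.05; right, the percent of chaperone genes (coloured) and of all tested genes (grey) that passed. The coloured bar is longest for TEC at day 20 against days 4 and 7 (65.9%) and for nonTEC ageing (35.6%), both close to the grey bar.

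Surgery without castration was read from sham against unoperated middle-aged mice. In TEC the sham groups of days 4, 7 and 20 were averaged, and the day 20 arrays differed from the earlier ones in 64.1% of all genes. What the day 20 arrays share therefore enters the TEC differences, and its part in them was not tested. In TEC 2 members rose and 1 fell of 41, 7.32% against 5.66% of all genes (1.92% higher, 3.74% lower). Tcp1 read 9.56 to 10.92 over the 9 sham arrays, all above the unoperated middle-aged arrays (9.05, 7.84 and 7.91), by 1.96 ± 0.27 (adjusted p = 0.00237). The young arrays read 9.68 to 10.36. Dnajb9 rose by 1.86 ± 0.52 (adjusted p = 0.0421) with overlapping arrays, and Dnajb2 fell by -0.52 ± 0.12 (adjusted p = 0.0187). At days 4, 7 and 20 the sham means of Tcp1 were 9.92, 9.99 and 10.78 (unoperated 8.27). Those of Dnajb9 were 8.60, 9.13 and 9.52 (unoperated 7.22), and those of Dnajb2 10.24, 10.40 and 9.90 (unoperated 10.70). For each gene the day 20 mean lay farthest from the unoperated mean, with the earlier means on the same side. Hsp90aa1 (2.12 ± 0.67, adjusted p = 0.0635) and Hspd1 (1.66 ± 0.54, adjusted p = 0.0681) did not pass. These comparisons share the unoperated middle-aged arrays with the ageing comparison, and without the second of them 1 of the 3 calls remained, while 6 members passed without the first or the third and 5 without sham day 4 array 3. In nonTEC limma called 0 of 45 (7 at an unadjusted p under 0.05), where 0.373% of all genes passed (0.322% higher, 0.0515% lower).

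The day 20 TEC arrays, castrated and sham together, stood apart from those of days 4 and 7 in most genes: 64.1% of all genes passed (25.9% higher, 38.2% lower), and 27 of 41 members did (65.9%), 11 higher and 16 lower. Time after surgery and any preparation shared by the day 20 arrays cannot be told apart. Hspa2 read 9.47 to 9.89 on the 6 day 20 arrays and 10.08 to 11.28 on the 12 earlier ones (-1.09 ± 0.13, adjusted p = 4.76e-07). Dnajc12 (-1.17 ± 0.13, adjusted p = 3.04e-07) and Dnajc2 (-1.04 ± 0.09, adjusted p = 1.80e-08) also fell without overlap, and Hsph1 fell by -0.70 (adjusted p = 0.00185). Tcp1 rose by 1.06 ± 0.20 (adjusted p = 0.000133) without overlap. Hsp90aa1 rose by 1.63 ± 0.51 (adjusted p = 0.00851), Hspa1b by 1.21 (adjusted p = 0.0466) and Hspd1 by 1.05 (adjusted p = 0.0304), all with overlap. The day 20 and earlier differences of Hspb8 depended on the probe, 0.22 on its brighter probe and -1.50 (adjusted p = 2.02e-07) on the second.

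Within groups, a few chaperone genes varied more between TEC arrays than nearly all genes, while the typical member did not. The median SD within groups was 0.252 over the members and 0.272 over all genes in TEC, and 0.195 and 0.22 in nonTEC. Above the 95th percentile of all genes in TEC were 6 members: Hspe1 (SD 1.20), Cct8 (1.18), Hspa1b (1.14), Hsp90aa1 (1.11), Hspd1 (0.897) and Dnajb9 (0.856). In nonTEC 4 were above it, Hspa1b (0.668), Hspa4l (0.519), Hspe1 (0.493) and Hsp90aa1 (0.472).

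**Figure D4:**
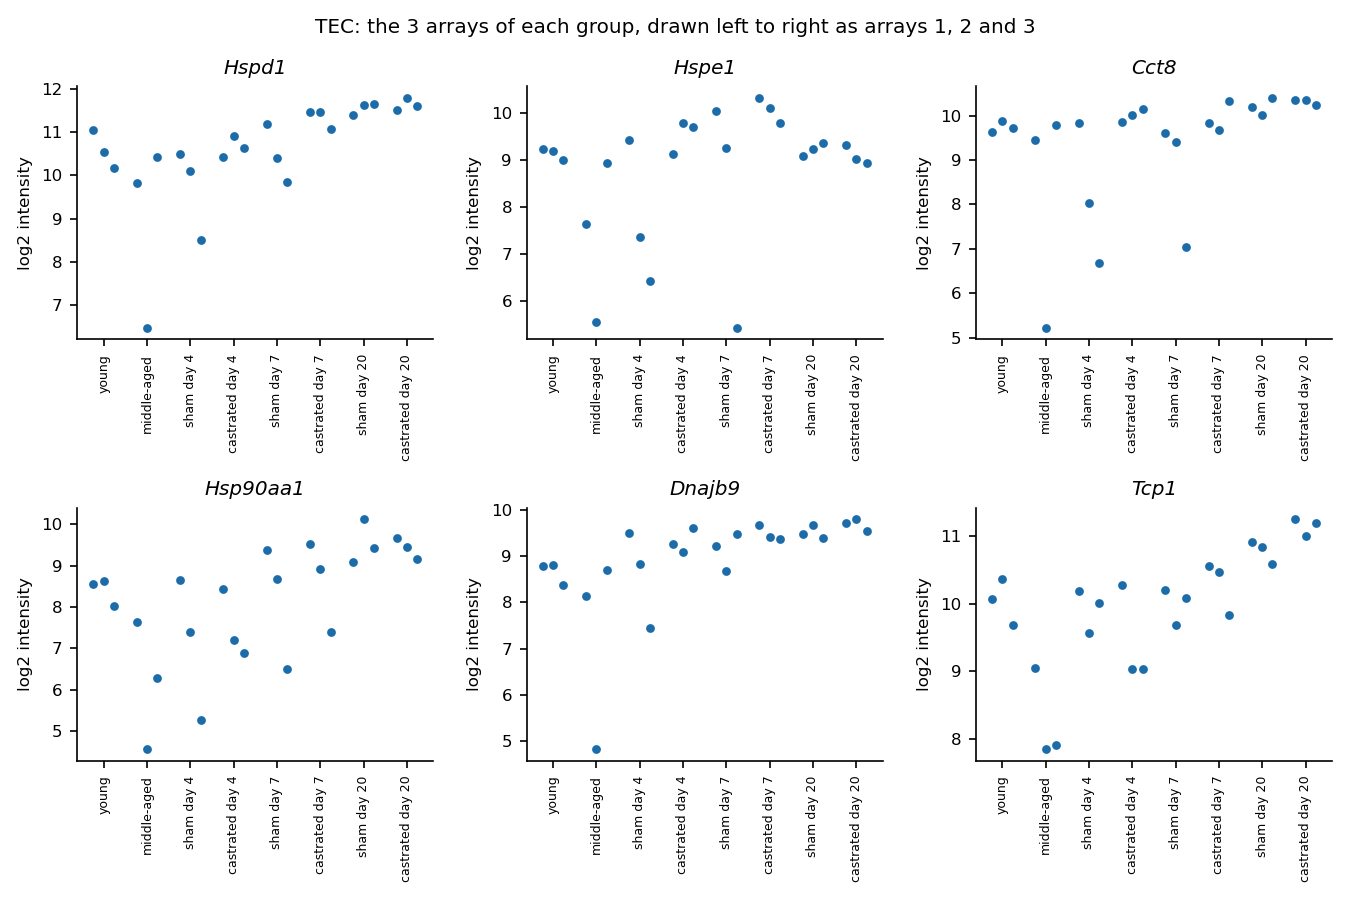
Log2 intensity (vertical axis) of Hspd1, Hspe1, Cct8, Hsp90aa1, Dnajb9 and Tcp1 on the 3 arrays (left to right 1, 2 and 3) of each TEC group. Hspd1, Hspe1, Cct8 and Dnajb9 drop on middle-aged array 2 and on sham array 3 at day 4, and Hspe1 and Cct8 also on sham array 3 at day 7; Tcp1 is lowest on middle-aged arrays 2 and 3 (7.84 and 7.91).

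The low values fell on the same TEC arrays across genes. On middle-aged array 2, sham day 4 array 3 and sham day 7 array 3, Hspe1 read 5.56, 6.43 and 5.43, against 7.35 to 10.33 on the other 21 arrays. Cct8 read 5.22, 6.68 and 7.04 on the same arrays, against 8.03 to 10.41 elsewhere. A different set, middle-aged array 3, castrated day 4 arrays 2 and 3 and castrated day 7 array 3, held the low values of Hspa1b (7.33, 7.80, 6.90 and 6.97, against 8.49 to 11.22 elsewhere). On the first 3 arrays of that set Cct6a, a further CCT subunit, read 9.60, 10.13 and 10.16, against 11.20 to 11.77 on the other 21, and on its second probe the same arrays were lowest (9.14, 9.75 and 9.81).

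Probes of a single gene split along these arrays in TEC. Hspa8 was read by 3 probes. On the probe used, ILMN_1246458, it varied by 0.627 over all 24 arrays. On ILMN_1249586 it read 6.32, 6.67, 6.35 and 7.97 on middle-aged array 2, sham day 4 arrays 2 and 3 and sham day 7 array 3, and 10.17 to 12.08 elsewhere. On ILMN_2918479 it read 6.34, 7.05, 5.94 and 7.60 on middle-aged array 3, castrated day 4 arrays 2 and 3 and castrated day 7 array 3, and 11.11 to 13.30 elsewhere. So the arrays that were low by these probes were different ones. Cct3 showed the same split: ILMN_1247317 read 4.59, 5.06, 5.01 and 7.83 on the set named last and 8.95 to 10.16 elsewhere, whereas the probe used varied by 0.795 over all arrays. The cause was not tested.

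**Figure D5:**
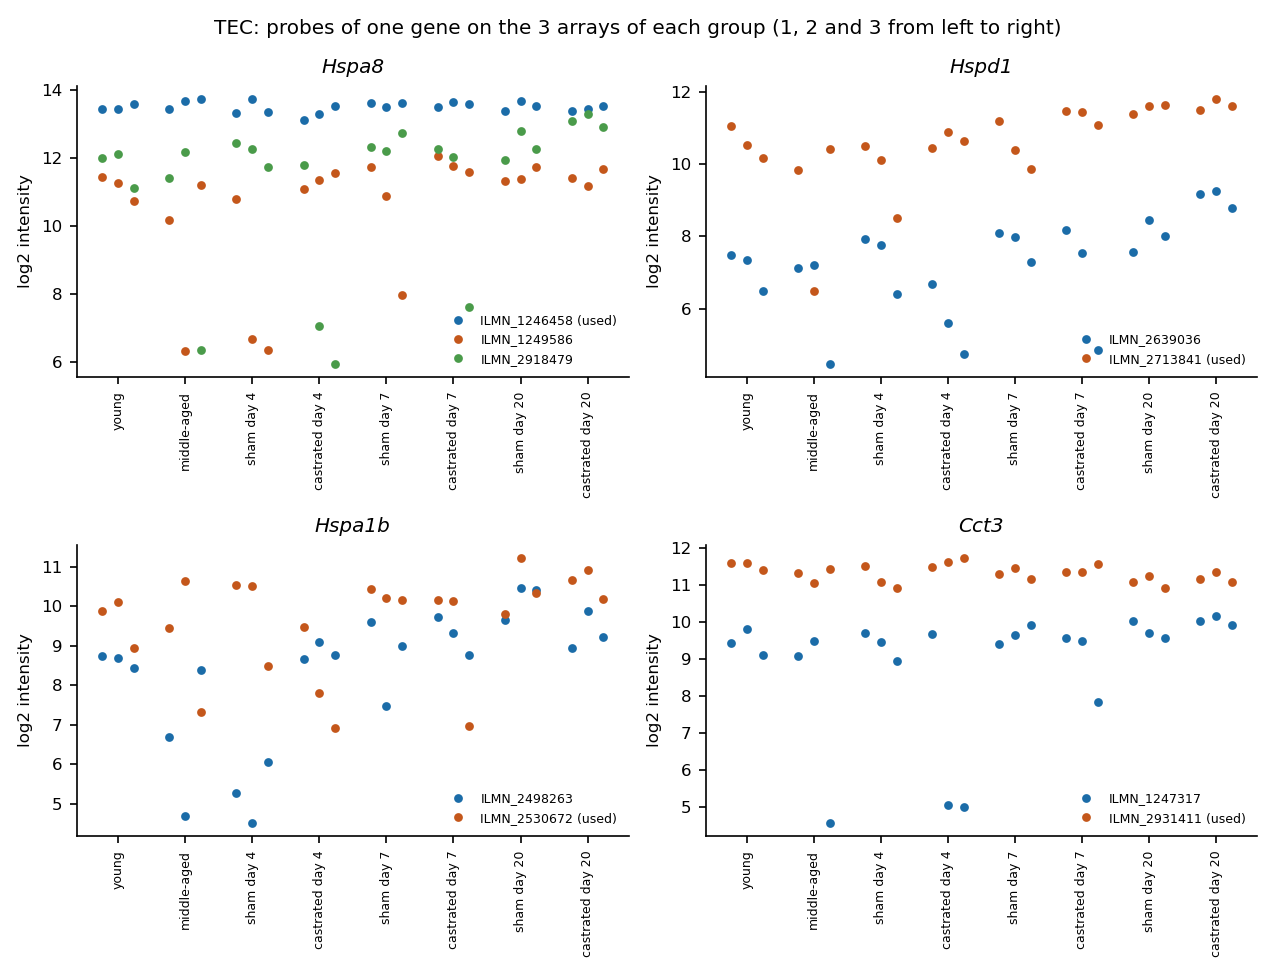
Log2 intensity (vertical axis) by each bright probe of Hspa8, Hspd1, Hspa1b and Cct3 on the 3 arrays (1, 2 and 3 from left to right) of each TEC group; the probe used for the gene is marked. The probes of a gene drop on different arrays, for Hspa8 by ILMN_1249586 to 6.32 on middle-aged array 2 and by ILMN_2918479 to 6.34 on middle-aged array 3.

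Over the members with several bright probes in TEC, the within-group correlation of 2 probes of a gene was below 0 for 10 of 19 pairs (7 of 13 genes), with a median of -0.06. Over all genes it was below 0 for 27.8% of 3485 pairs, with a median of 0.38. In nonTEC it was below 0 for 2 of 26 member pairs, with a median of 0.52, against 13.8% of 3972 pairs and 0.50. These are descriptions over 24 or 17 arrays that share library and hybridization. In TEC the probes of Hspa8 gave -0.20, -0.41 and -0.28, those of Hspa1b -0.33, those of Hspd1 -0.06 and those of Cct6a 0.99.

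Across arrays, after subtracting group means, the 6 pairs of members of most similar pattern in TEC were, in order, Dnajb9 and Hspd1 (r = 0.91 over 24 arrays), Cct8 and Hspd1 (0.90), Cct8 and Hspe1 (0.88), Dnajc19 and Dnajc30 (0.85), Hspb8 and Hsph1 (0.83) and Dnajb1 and Hsph1 (0.82). The low arrays enter these values. On middle-aged array 2, Hspd1, Dnajb9 and Cct8 lay at -2.44, -2.40 and -2.93 from their group means. On sham day 4 array 3 they lay at -1.19, -1.14 and -1.50. The values of Hspd1 hold for the probe used only, since its 2 bright probes correlated at -0.06 in TEC. In nonTEC the leading pairs were Hsp90aa1 and Hspa5, Dnajc19 and Dnajc30, Hsp90aa1 and Hspd1, and Hspa5 and Hspe1, all at 0.89 over 17 arrays. Hspd1 and Hspe1, which share a promoter, correlated at 0.76 in TEC and 0.73 in nonTEC, and Hspa1a and Hspa1b at 0.71 in nonTEC. The median over all pairs of members was 0.03 in both fractions (820 and 990 pairs).

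Co-chaperones and stress pathways outside the families were followed from gene lists. Of 28 co-chaperones and heat shock factors tested in nonTEC 6 rose with age and 0 fell by limma (6 at an unadjusted p under 0.05), 21.4%, below the 32.5% of all genes. Bag3, the partner of Hspb8, rose by 0.66 ± 0.14 (adjusted p = 0.00192), Unc45a, a myosin chaperone, by 0.68 (adjusted p = 0.00207), Trap1, the mitochondrial HSP90, by 0.48 (adjusted p = 0.0103) and Cdc37l1 by 0.50 (adjusted p = 0.0227). In TEC 4 of 29 were called for age (13.8%, where 18.5% of all genes were), all higher: Bag4 by 0.78, Fkbp5 by 0.63, Bag5 by 0.52 and Tomm34 by 0.64. Fkbp5, an HSP90 co-chaperone of steroid receptors, rose with age (adjusted p = 0.00428) and fell by -0.89 (adjusted p = 0.000156) in castrated against sham TEC at day 20, comparisons that share no arrays. At that day 4 of 29 co-chaperones were called (13.8%, where 22.2% of all genes were): Serpinh1, the collagen chaperone, fell by -0.79, Fkbp5 by the value above, Stub1, a ubiquitin ligase of HSP70 clients, fell by -0.52, and Pfdn4, a prefoldin subunit, rose by 0.39.

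Of the unfolded protein response genes, 3 of 22 rose and 1 fell with age in nonTEC (18.2%, below the 32.5% of all genes): Trib3 by 0.91, Asns by 0.87, Xbp1 by 0.55 and Creld2 by -0.85. In TEC 4 of 21 were called (19%, where 18.5% of all genes were): Sil1, a nucleotide exchanger of BiP, rose by 0.66 and 3 fell, Creld2 by -0.72, Trib3 by -1.06 and Chac1 by -0.92. At day 20 after castration these 3 rose in TEC, by 0.79, 0.89 and 0.80, and Ppp1r15a fell by -0.57 (19% called, where 22.2% of all genes were). Trib3 changed in opposite directions with age in the fractions, a difference of -1.97 ± 0.34 (TEC minus nonTEC, adjusted p = 0.000239), and Asns also differed, by -1.44 ± 0.32 (adjusted p = 0.0037). Of the immediate early genes, 10 of 19 rose with age in TEC and 0 fell by limma (11.9% of all genes rose), and 7 of 20 rose and 1 fell in nonTEC (16.8% and 15.6% of all genes). In TEC they included Zfp36 (1.31), Socs3 (1.40), Jun (1.30) and Ier3 (1.15), and in nonTEC Ier3 (0.98), Fosl2 (1.15) and Socs3 (0.60), while Dusp2 fell (-1.24). Of the 11 heat-inducible members, limma called 0 of 9 tested for ageing in TEC (2 at an unadjusted p under 0.05; 18.5% of all genes were called), and in nonTEC 3 of 10 rose, Hspa1b, Hsph1 and Hspb1, where 16.8% of all genes rose.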

How the data were processed

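The deposited values of the authors are log2 intensities of 24671 Illumina probes on 41 arrays. The log base is not stated and was read as 2 from the range of 4.17 to 14.89. Per the labels' protocols, RNA from sorted cells was purified with Qiagen RNeasy, checked on a Bioanalyser and labelled with biotin by the Ambion TotalPrep kit. Of the software, limma is named in the submitters' processing notes with no version, and the background correction is not given in the sources used here. The arrays within a fraction share their quantiles, which differ between fractions, so the authors apparently normalized TEC and nonTEC apart. No scaling was added.

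Of the probes, 20825 list 1 gene, 11 several and 3835 none. A gene was read from its probe of highest mean over all arrays, the same in every fit. Genes with at least 1 group mean above 6.73 were tested, 8174 in TEC, 7765 in nonTEC and 8487 in both. Each fit had a term per group in limma 3.58.1 under R 4.3.3, with eBayes and its trend option, over all TEC, all nonTEC or all 41 arrays (residual degrees of freedom 16, 11 and 27), and the 11 comparisons are contrasts of them, adjusted by Benjamini-Hochberg at a threshold of 0.05. The fit was also run on simulated data with independent noise for each value. That run cannot speak for the TEC arrays, where low values were shared between genes. Per comparison up to 8 members past the threshold in each direction were named, beside a fixed set of chaperones, and up to 4 genes of each other list. For TEC at day 20 against days 4 and 7 only some of those 8 were named. Dnajb12 (-0.92) and Dnajc4 (-0.82), which fell there without overlap, were among those left out. Genes named for their level in the fractions, their spread or their probes, or for a difference that did not pass, were chosen after their values were seen. Hspbp1 and Hspbap1 were put with the co-chaperones. The members and lists were chosen with earlier results of these data known.

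Replicate numbers were not taken as pairs: of 20 same-numbered pairs 7 correlated above 0.1 (-0.146 to 0.26), and in 0 of 7 comparisons did every pair. All arrays were assigned from the labels and 0 columns were unassigned. The alternatives were to drop the filter or raise it to 7.84 (the 65th percentile), median centring, quantile normalization, the mean of all probes, other fits and controls, a replicate block, and leaving out each array. Each other probe of a gene was added after the data were seen, from a fit of all probes. Figures were drawn with matplotlib 3.10.9 (Python 3.11.15).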

Additional observations from a re-analysis of the deposited data

Results flagged for a closer look

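For 4 chaperone genes the ageing difference itself differed between the fractions in limma's fit of all 41 arrays, 4 of 46 tested where 11.2% of all genes differed. As TEC minus nonTEC, the difference was -1.16 for Hspb8 (adjusted p = 0.00203), -1.46 for Hsph1 (adjusted p = 0.0133), -1.45 for Tcp1 (adjusted p = 0.0127) and 0.83 for Dnajc2 (adjusted p = 0.00613). Within nonTEC, Hspb8 and Hsph1 rose with age and Dnajc2 fell, and within TEC Tcp1 fell. That fall was not seen with the sham groups, day 20 included, in place of the unoperated middle-aged arrays (0.19). The sham TEC arrays read 9.56 to 10.92 in Tcp1 and the young ones 9.68 to 10.36. On the second probes of Tcp1 and Hspb8 the difference between the fractions did not pass. No chaperone gene was tested for a sample far from the others, since every group had 3 arrays or fewer.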

How the results depend on the processing

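The counts of chaperone genes past the threshold were set against each alternative. In nonTEC, ageing gave 16 calls, 8 with only the arrays compared and 12 to 17 without each array in turn. In TEC ageing gave 4, 0 with only the arrays compared, and 1 to 10 without each array. Without the 4 arrays that stood apart it gave 13, all 4 genes among them. With the sham groups standing in for the middle-aged group it gave 7, with 1 of the 4 genes among them. The ageing difference gave 4, 7 with the mean of all probes, 2 with only the arrays compared, 9 without the 4 arrays, and 4 to 8 without each array. Castration in TEC gave 0 at day 4, 2 with the mean of all probes and 0 to 7 without each array. At day 7 it gave 0, 3 against unoperated arrays and 0 to 0 without each array. At day 20 it gave 5, 14 with only the arrays compared, 20 against unoperated arrays and 1 to 4 without each array. All 5 genes were among the 14, and 3 of them among the 20. In nonTEC castration gave 1 at day 4, but 0 without a filter, 0 with the stricter filter and 0 with the mean of all probes. The replicate block gave 2 with that gene among them, and the unoperated arrays gave 3 without it. Leaving out each array gave 0 to 2. At day 7 castration gave 0, 1 with only the arrays compared and 5 against unoperated arrays. Sham against unoperated gave 3 in TEC (5 with the mean of all probes, 1 with only the arrays compared, 7 without the 4 arrays, 1 to 6 without each array) and 0 in nonTEC. Day 20 gave 27, and 23 to 28 without each array. The replicate block moved no other count by over 1.5 times. The fits of fewer arrays have fewer degrees of freedom; the cause of the other shifts was not tested.

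For named genes, 790 alternatives kept the direction and the call, 117 lost the call and 8 reversed. With the sham groups standing in, day 20 included, ageing in TEC gave -0.0709 for Dnajb2 and 0.19 for Tcp1. Dnajc19 in nonTEC gave 0.11 with the mean of all probes and 0.37 and 0.50 on its other probes. Against unoperated arrays, day 20 castration gave -0.77 for Dnajc12 (adjusted p = 0.00556), -0.27 for Dnajc15 and 0.056 for Hspb8. In nonTEC, Hspb8, Hsph1, Dnajb2, Dnajc15, Dnajc2 and Hsp90b1 kept their ageing calls under every alternative run (14, or 15 for Hspb8), whereas Hspa1b kept 9 of 15. Signal over background limits the 18 genes that passed in neither fraction.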

Other observations

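Dnajc15, the mitochondrial inner membrane DnaJ protein that fell with age in nonTEC, read higher in castrated than in sham arrays in all 5 castration comparisons, and it was singled out after its values were seen. In TEC the sham arrays read 9.94 to 10.29 at day 4, 9.83 to 10.11 at day 7 and 9.37 to 9.48 at day 20, and the castrated arrays 10.36 to 10.65, 10.27 to 10.55 and 9.61 to 10.30, with no overlap at any day. In nonTEC they read 9.04 to 9.20 and 9.52 to 9.81 at day 4, again apart, and overlapped at day 7. By limma only the day 20 difference passed (0.50 ± 0.16, adjusted p = 0.0253); those at day 4 and day 7 in TEC were 0.39 (adjusted p = 0.128) and 0.47 (adjusted p = 0.211), and in nonTEC 0.48 (adjusted p = 0.193) and 0.30 (adjusted p = 0.762). Of 39 members tested in both fractions 7 had 1 sign in all 5 comparisons (17.9%), against 10.9% of 6810 genes, and Dnajc15 was the only member that was also without overlap in 4 of them (2.56%, against 1.16% of all genes). The other 6 were Cct3, Cct4, Cct8, Dnajb9, Dnajc19 and Dnajc6, all higher after castration. A sign was counted whatever its size, as for Cct4 in TEC at day 4 (0.03 ± 0.14), and on the probe used only. The low sham TEC arrays enter it for Cct8 (6.68 on day 4 array 3, 7.04 on day 7 array 3) and Dnajb9 (7.46 on day 4 array 3).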
